A study of Mus musculus with 12 samples.

Results

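Pou5f1, Sox2, Nanog, Utf1, Lin28a, Lin28b, Tfcp2l1, Esrrb, Klf4 and Zfp42 are genes linked to pluripotency in embryonic stem cells. They are also linked to a related state of germ cells early in their life. They were taken by gene symbol from the Ensembl identifiers of the deposited table, and all 10 were found, each on 1 of its 55487 gene rows. The question followed here is how the RNA of each gene changed across the gonocyte period and in which order the genes were lost. Gonocytes are the male germ cells of the fetal and newborn testis. Gene positions are those of the GENCODE M21 annotation of GRCm38, where all 10 are protein coding.

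The study profiled male germ cells from the testes of Mvh-Venus transgenic mice, a line in which the germ cell gene Mvh, also called Ddx4 or Vasa, marks the cells with a fluorescent protein. RNA was sequenced from 3 libraries at each of 4 stages. E13.5 and E16.5 are days of embryonic development, while P0 and P3 count days after birth. Sample titles call all 12 libraries WT, while the genotype tag reads Morc1 (+/-) at E13.5 and P0 and Morc1 (-/-) at E16.5 and P3. The labels therefore conflict, the libraries were grouped by stage alone, and genotype as tagged and stage cannot be told apart between consecutive stages. P0 against E13.5 and P3 against E16.5 are the comparisons within 1 tag. Nothing in the labels says that the 3 libraries of a stage came from separate animals or pools, so p-values measure only the spread between these libraries, which may be technical.

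Recovered reads assigned to genes ranged from 40946616 to 51533747 per library. Libraries of 1 stage differed by more than sampling noise in all 12 pairs (chi-square per degree of freedom 5.75 to 21.2), so each was counted once. In normalized counts, defined below, Morc1 had 1621 to 1830 in the E13.5 libraries, 28328 to 32917 in those of E16.5, 7280 to 7708 in those of P0 and 10584 to 11129 in those of P3, so it was highest in libraries whose tag reads (-/-). Where in Morc1 a mutant allele would be altered is not given in the sources used here. The 6 germ cell markers (Ddx4, Dazl, Dnd1, Mael, Tdrd1 and Piwil2) were above 3 reads in every library. Markers of other testis cells were also present, and their values stand beside the genes they moved with. In these bulk samples, fewer cells expressing a gene and less RNA per cell cannot be told apart.

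In pluripotent cells, POU5F1 (OCT4) and SOX2 bind composite DNA sites side by side and maintain their own transcription together with NANOG. ESRRB, KLF4 and TFCP2L1 feed into the same network in the naive state, ZFP42 (REX1) is a widely used reporter of that state, and UTF1 is a chromatin-bound protein of embryonic stem cells and germ cells. LIN28A and LIN28B bind RNA and block the maturation of let-7 microRNAs, and let-7 in turn represses both LIN28 messages. Male germ cells carry parts of this network from their origin in the embryo, and after sex determination they stop dividing until shortly after birth.

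The promoters are shown because factors of the network bind such sequences in one another's genes, and because the genes with an octamer-type match here did not share 1 time course. RefSeq (GRCm38.p6) gave 13 windows of 250 bases upstream of a start site for the 10 genes. The letters TTTGCAT, an octamer-type POU motif, were searched on both strands. They lay in 4 of the 13 windows, against 4.13% of 32817 promoter windows of the same length. These windows belong to 3 genes (Nanog, with 2 of them, Sox2 and Zfp42). TTTGCATNACAATG, which joins that motif to a SOX motif and overlaps it, lay in both windows of Nanog, which overlap each other, and these were the only 2 of the 32817 (0.00609%). GGGCGG, a GC box, lay in 5 of the 13 windows, 1 each of Klf4, Pou5f1, Sox2, Utf1 and Zfp42, against 32.7% of all windows. AGGTCA, a nuclear receptor half-site, lay in 3 of the 13, 1 each of Nanog, Pou5f1 and Sox2, against 14.0%. In the Nanog window below, chr6:122707239-122707488 on the plus strand, capitals mark the composite match 75 to 62 bases before the start site. In the Sox2 window, chr3:34649745-34649994 on the plus strand, they mark the octamer-type match read on the opposite strand. In the Zfp42 window, chr8:43307010-43307259 on the minus strand, they mark the octamer-type match. In the Pou5f1 window, chr17:35505782-35506031 on the plus strand, they mark a GC box and a half-site. A match describes these letters only, and binding was not measured.
Nanog: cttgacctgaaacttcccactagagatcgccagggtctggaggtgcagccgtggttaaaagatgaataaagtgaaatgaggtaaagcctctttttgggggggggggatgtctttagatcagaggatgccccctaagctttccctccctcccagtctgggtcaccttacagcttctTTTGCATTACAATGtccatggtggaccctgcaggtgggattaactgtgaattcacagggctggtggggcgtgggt
Sox2: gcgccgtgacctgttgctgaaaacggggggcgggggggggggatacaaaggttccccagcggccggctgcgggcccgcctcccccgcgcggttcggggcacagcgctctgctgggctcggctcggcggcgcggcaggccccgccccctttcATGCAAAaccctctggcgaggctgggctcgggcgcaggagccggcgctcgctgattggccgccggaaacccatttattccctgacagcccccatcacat
Zfp42: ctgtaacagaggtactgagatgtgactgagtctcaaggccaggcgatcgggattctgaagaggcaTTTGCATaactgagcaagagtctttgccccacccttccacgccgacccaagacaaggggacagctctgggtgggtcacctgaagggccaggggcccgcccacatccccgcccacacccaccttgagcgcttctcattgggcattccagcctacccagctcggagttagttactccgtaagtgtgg
Pou5f1: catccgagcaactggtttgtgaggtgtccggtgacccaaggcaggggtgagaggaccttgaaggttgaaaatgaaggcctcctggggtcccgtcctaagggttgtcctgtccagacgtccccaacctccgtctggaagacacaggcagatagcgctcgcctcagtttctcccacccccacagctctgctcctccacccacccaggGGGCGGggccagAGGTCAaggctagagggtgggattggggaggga

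**Figure D1:**
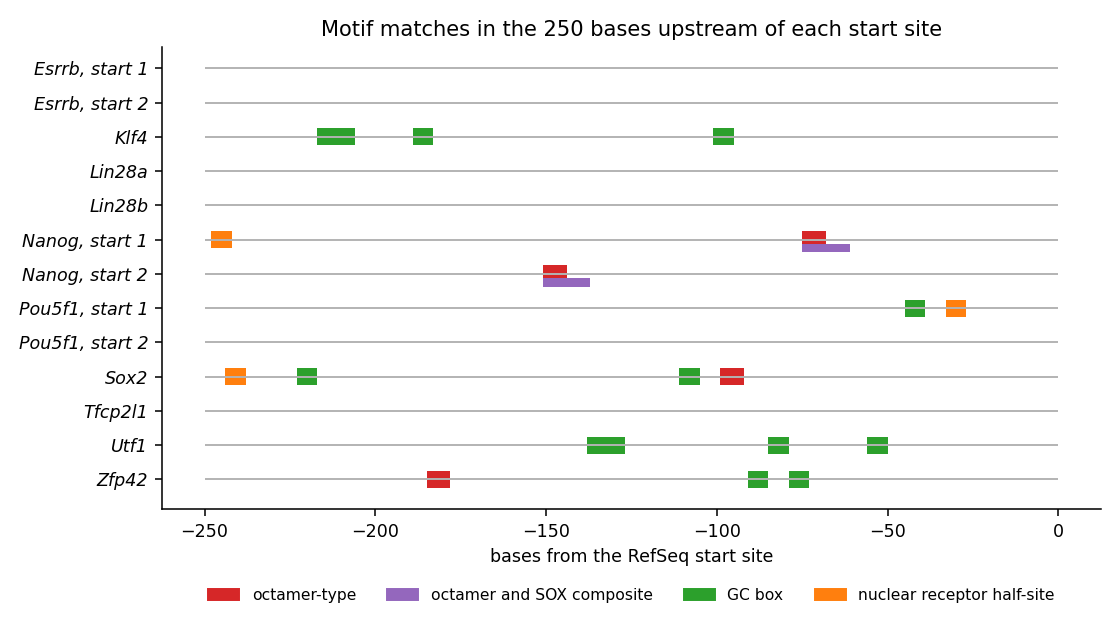
Positions of 4 motifs in the 250 bases upstream of each RefSeq start site of the 10 genes; the horizontal axis is the distance from the start site in bases and each coloured block is a match on either strand. The composite of octamer and SOX letters appears only in the 2 windows of Nanog, and no searched motif appears in those of Esrrb, Lin28a, Lin28b and Tfcp2l1.

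Nanog, a homeodomain factor of the core network (ENSMUSG00000012396, 6:122707489-122714633, plus strand, GRCm38), was lost most completely of the 10. A normalized count, used throughout, is the number of reads assigned to a gene divided by 1 size factor per library. The E13.5 libraries held 4006, 3627 and 3214 normalized counts of Nanog, those of E16.5 182, 293 and 239, those of P0 63.7, 64.1 and 60.8, and those of P3 1.94, 2.95 and 3.04. No 2 stages overlapped, and the P3 values stand for 2, 3 and 3 reads, at or under the limit of 3 reads per library taken here as the floor. Nanog fell by 3.94 on the log2 scale from E13.5 to E16.5 (SE 0.21, 15.4-fold lower, limma adjusted p = 3.22e-11) and fell by a further 1.88 from E16.5 to P0 (SE 0.21, adjusted p = 1.02e-06). At P3, against that floor, it was at least 21.2-fold lower than at P0 and at least 1220-fold lower than at E13.5. Fold changes and tests here are from limma on log2(normalized count + 1), fitted over 22384 genes and adjusted with the Benjamini-Hochberg method, and a gene passed at an adjusted p under 0.05. Such fold changes understate the change of low genes.

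Dppa3 (Stella), a maternal and germ cell factor, and Gdf3, a ligand of the TGF-beta family, lie 77216 and 97401 bases from Nanog on chromosome 6 and are on the wider network list used below. In mean normalized counts Dppa3 went from 79747 (E13.5) through 14676.5 (E16.5) and 182 (P0) to 17.8 (P3), a fall at each step (log2 fold changes -2.44, -6.34 and -3.31, adjusted p at most 4.02e-10). Gdf3 had means of 3094, 329, 131 and 20.5 in the same order, and it also fell at each step (-3.23, -1.32 and -2.84, adjusted p at most 0.00202), though with equal library totals its second step was -0.66 and did not pass (adjusted p = 0.0854). Under the deposited scaling both neighbours thus fell at the same 3 steps as Nanog, while the step from E16.5 to P0 was the largest for Dppa3 and the smallest for Nanog on the log2 scale.

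Sox2, a high mobility group factor (ENSMUSG00000074637, 3:34650405-34652461, plus strand), fell almost entirely between E13.5 and E16.5. Its libraries held 4084, 4154 and 4376 normalized counts at E13.5, 262, 355 and 353 at E16.5, 246, 159 and 189 at P0, and 252, 292 and 285 at P3. All later values are far under those of E13.5, P0 lies under E16.5, and P3 overlaps E16.5. The first step was a fall by 3.71 on the log2 scale (SE 0.15, 13.1-fold lower, limma adjusted p = 9.70e-13). From E16.5 to P0 Sox2 fell by 0.72 (adjusted p = 0.000662), a call lost when library totals were made equal (-0.06, adjusted p = 0.762). The rise of 0.50 from P0 to P3 (adjusted p = 0.00696) did not pass with TMM factors (0.33, adjusted p = 0.062) and turned to -0.34 with equal totals. P3 against E16.5 gave -0.22 (adjusted p = 0.217), which passed at -0.40 with median-of-ratios factors (adjusted p = 0.0228), at -0.39 with equal totals (adjusted p = 0.034) and at -0.36 without E16.5 library 1 (adjusted p = 0.0493).

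Pou5f1, the POU factor OCT4 (ENSMUSG00000024406, 17:35506018-35510772, plus strand), fell mostly between E16.5 and P0 on the log2 scale. It had 13346, 13145 and 13276 normalized counts at E13.5, 6790.4, 7197 and 7254 at E16.5, 1105, 1026 and 1027 at P0, and 1853, 1754 and 1755 at P3. No stage overlaps another, and within each stage the libraries lie within a narrow range. Pou5f1 fell by 0.91 on the log2 scale to E16.5 (SE 0.06, adjusted p = 1.09e-09) and fell by 2.75 from E16.5 to P0 (SE 0.06, 6.72-fold lower, adjusted p = 5.70e-14). The difference of 0.76 between P3 and P0 (1.70-fold higher, adjusted p = 1.27e-08) turned to -0.08 with equal library totals (adjusted p = 0.262). Of the exon bases of Pou5f1, 14.1% overlap Gm19553 on the opposite strand, whose mean was 0.257 normalized counts; whether counting used strand is not given in the sources used here.

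**Figure D2:**
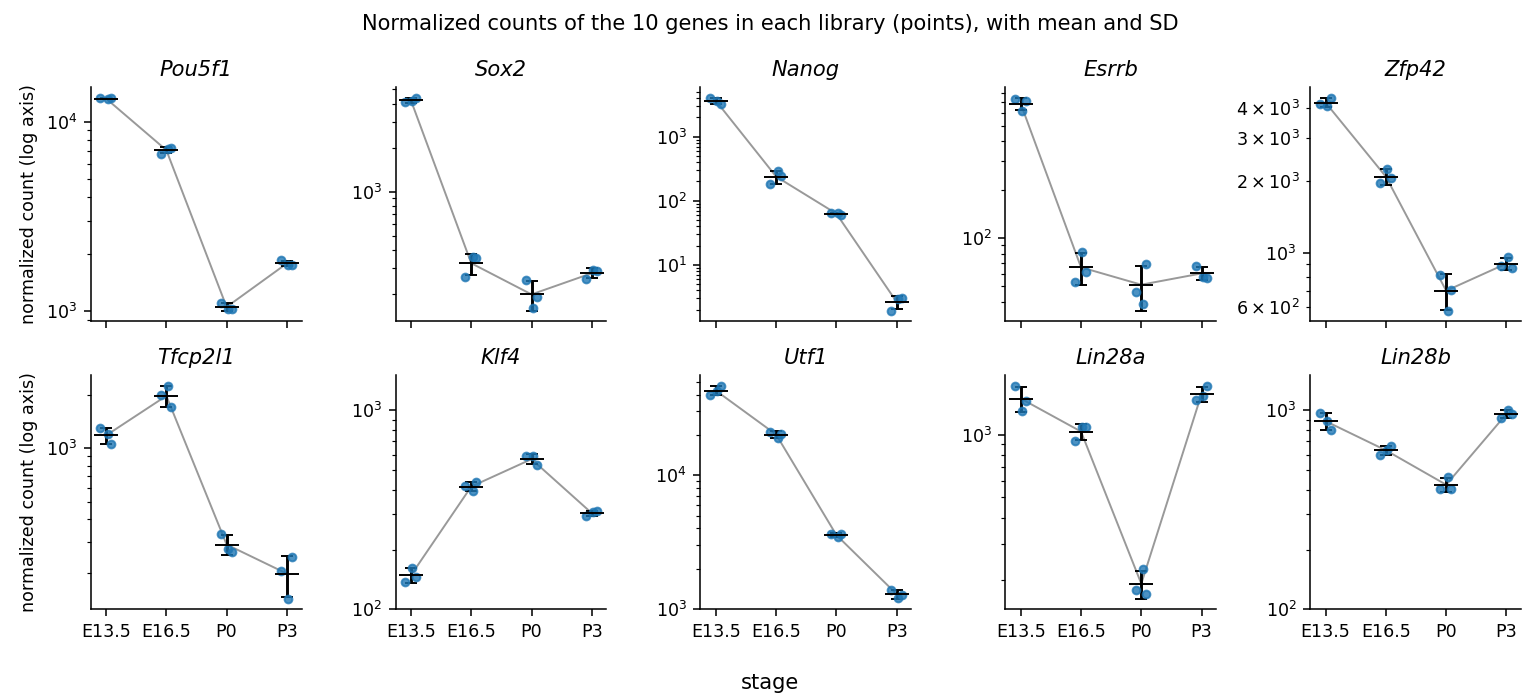
Normalized counts (log axis, with its own range in each panel) of the 10 genes at the 4 stages; points are single libraries, black bars the mean and SD of 3, and the grey line joins the means. Nanog and Utf1 fall at every step, Sox2 and Esrrb fall most at the first step and are at 159 to 355 and 38.6 to 81.8 normalized counts afterwards, Klf4 peaks at P0, and Lin28a and Lin28b return at P3 to the range of E13.5.

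Esrrb, an orphan nuclear receptor (ENSMUSG00000021255, 12:86361117-86521628, plus strand), had the time course nearest to that of Sox2 among the 10. It had 730.5, 617 and 708 normalized counts at E13.5, 53.4, 81.8 and 61.7 at E16.5, 45.9, 38.6 and 69.0 at P0, and 66.9, 57.0 and 56.7 at P3. Every later library is far under the E13.5 libraries, and the 3 later stages overlap one another. Esrrb fell by 3.38 on the log2 scale to E16.5 (SE 0.24, 10.4-fold lower, limma adjusted p = 9.02e-10). The later steps did not pass, at -0.37 for P0 against E16.5 (adjusted p = 0.184) and 0.27 for P3 against P0 (adjusted p = 0.313), and both changed sign with equal library totals. Without P0 library 4, the highest of its stage, P0 against E16.5 passed at -0.61 (adjusted p = 0.0399). The root mean square difference between the centred log2 profiles of Esrrb and Sox2 over the 12 libraries was 0.341, the smallest among the pairs of these genes.

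Tfcp2l1, a CP2-family factor of the naive state (ENSMUSG00000026380, 1:118627945-118685168, plus strand), rose before it fell. Its libraries held 1293, 1196 and 1051 normalized counts at E13.5, 1982, 2224 and 1694 at E16.5, 332, 274 and 261 at P0, and 206, 143 and 245 at P3. E16.5 is the highest stage with no overlap. The rise was 0.73 on the log2 scale (SE 0.17, 1.66-fold, adjusted p = 0.000767), against a median of 0.31 over all genes tested. Tfcp2l1 then fell by 2.76 to P0 (SE 0.17, 6.79-fold lower, adjusted p = 4.78e-10) and by less afterwards, as it fell by 0.57 to P3 (adjusted p = 0.00589).

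Klf4, a zinc finger factor that is also made in many somatic cells (ENSMUSG00000003032, 4:55527143-55532466, minus strand), was the only 1 of the 10 that was higher at all 3 later stages than at E13.5. It had 137, 162 and 146 normalized counts at E13.5, 417, 391 and 435 at E16.5, 590.0, 587 and 530.4 at P0, and 294, 309 and 311 at P3. No 2 stages overlap, and P0 is highest. Klf4 rose by 1.48 on the log2 scale to E16.5 (SE 0.12, adjusted p = 6.51e-09) and by 0.46 to P0 (adjusted p = 0.00355), then fell by 0.90 to P3 (adjusted p = 3.70e-06). The summed levels of Sertoli, peritubular and mast cell markers were highest at P0 as well. The sum of 6 Sertoli cell markers was 893 to 1480 normalized counts in E13.5 libraries, 1237 to 2394 in E16.5, 2702 to 4956 in P0 and 1051 to 1668 in P3 libraries, and of the 5 of them that were tested 2 rose from E13.5 to E16.5, 5 rose from E16.5 to P0 and 5 fell from P0 to P3. The sum of 4 peritubular markers was 159 to 209, 929 to 1331, 2835 to 3156 and 684 to 741 in the same order. The mast cell markers Cpa3, Tpsb2, Tpsab1, Mcpt4 and Cma1 were each at 0 reads in every E13.5 library, which allows up to 3 reads per library, and their sum was 22.3 to 37.2 at E16.5, 1277 to 2856 at P0 and 3.04 to 310.3 at P3. The sums of endothelial markers (4, sum 4429 to 5192, 671 to 849, 1000.4 to 1157 and 577 to 741 at the successive stages) and those of macrophages and leukocytes (5, sum 38.1 to 72.8, 980 to 1156, 135.1 to 274 and 270.1 to 297) were not highest at P0. Single genes differed from these sums. From E13.5 to P0, 3 endothelial markers rose and Pecam1 fell. Of 4 tested leukocyte markers 3 rose and 1 did not pass. From E16.5 to P0, 1 endothelial marker rose and 3 did not pass, while Ptprc rose, Cd68 fell and 2 leukocyte markers did not pass. From P0 to P3, 2 endothelial markers fell and 2 did not pass, while 3 leukocyte markers fell and Cd68 rose. The sum of 6 Leydig cell markers was 730 to 939, 812 to 8184, 1494 to 7281 and 499 to 527 at the successive stages. That of 4 red blood cell markers was 33.7 to 385, 242 to 1008, 351 to 1140 and 69.8 to 201. Both of these sums overlapped between E16.5 and P0. The part of other cells in the level of Klf4 was not tested.

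Zfp42, the zinc finger protein REX1 (ENSMUSG00000051176, 8:43295063-43306980, minus strand), fell at the first and second steps. Its libraries held 4137, 4077 and 4404 normalized counts at E13.5, 1948, 2241 and 2041 at E16.5, 813, 579 and 706 at P0, and 889, 966 and 865 at P3. P3 lies just above P0, with no overlap. Zfp42 fell by 1.02 on the log2 scale to E16.5 (SE 0.11, adjusted p = 1.52e-07) and fell by 1.58 to P0 (SE 0.11, adjusted p = 1.61e-09). The difference of 0.39 between P3 and P0 (adjusted p = 0.00347) was 0.22 with TMM factors (adjusted p = 0.0735), -0.05 with median-of-ratios factors and -0.45 with equal totals. A pseudogene, Zfp42-ps1, shares 8.52% of the 50-base words of Zfp42 and had a mean of 10.2 normalized counts, so reads could have been divided between them.

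Utf1 (ENSMUSG00000047751, 7:139943789-139945112, plus strand) fell at every step and was the most abundant of the 10 per length of transcript throughout. It had 39611, 42528 and 46302 normalized counts at E13.5, 21129.8, 18925 and 20264 at E16.5, 3654, 3448 and 3618 at P0, and 1400.3, 1206 and 1274 at P3. No 2 stages overlap. Utf1 fell by 1.09 on the log2 scale, then fell by 2.49 and then fell by 1.47 (SE 0.08 each, limma adjusted p = 8.51e-10, 3.68e-13 and 2.67e-11). From E13.5 to P3 it was 33.1-fold lower (adjusted p = 2.92e-17), with a mean of 1294 ± 98.6 normalized counts (SD, n = 3) at P3.

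Lin28a (ENSMUSG00000050966, 4:134003330-134018841, minus strand) fell until P0 and came back by P3. It had 1718, 1308 and 1463 normalized counts at E13.5, 930.4, 1096 and 1088 at E16.5, 179.6, 226 and 171 at P0, and 1467, 1535 and 1719 at P3. Values at P3 overlap those of E13.5 and lie above those of both other stages. Lin28a fell by 0.52 on the log2 scale to E16.5 (SE 0.13, adjusted p = 0.00116), a difference that was -0.02 with equal totals (adjusted p = 0.917). It fell by 2.43 to P0 (SE 0.13, 5.40-fold lower, adjusted p = 6.93e-11) and rose by 3.03 to P3 (SE 0.13, 8.19-fold higher, adjusted p = 1.85e-12). The rise at P3 held under each of the 4 other scalings. P3 against E13.5 was 0.08 (adjusted p = 0.596), with -0.01 without E13.5 library 3 and 0.41 with equal totals (adjusted p = 0.0119).

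Lin28b (ENSMUSG00000063804, 10:45376620-45486395, minus strand) followed the same order of stages over a smaller range. Its libraries held 966, 889 and 795 normalized counts at E13.5, 594, 636 and 660.1 at E16.5, 403, 463 and 404 at P0, and 915, 1006 and 959.6 at P3. P0 is lowest, and P3 overlaps E13.5. It fell by 0.48 on the log2 scale to E16.5 (adjusted p = 0.000379) and fell by 0.58 to P0 (adjusted p = 0.000129), and with equal totals these differences were 0.02 and 0.09. From P0 to P3 it rose 2.27-fold (adjusted p = 1.84e-08), and it was higher under each of the 4 other scalings. P3 against E13.5 was 0.12 (adjusted p = 0.295) and passed at 0.45 with equal totals (adjusted p = 0.00156).

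The let-7 sites of both LIN28 messages are shown because let-7 and LIN28 repress each other. The 8 let-7 microRNAs matched in RefSeq share the seed GAGGUAG (bases 2 to 8, in capitals below), and the complementary letters CTACCTC occur 2 times in the 3′ untranslated region of Lin28a-201 (2775 bases) and 4 times in that of Lin28b-201 (4445 bases). The first site of each is printed with capitals for the seed match, at 4:134005189-134005211 for Lin28a and 10:45381022-45381044 for Lin28b, both on the minus strand of GRCm38. MicroRNAs were not analysed here.
mmu-let-7a-5p: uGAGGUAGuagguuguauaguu
mmu-let-7g-5p: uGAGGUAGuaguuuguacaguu
Lin28a site: gcacagcctgttgaaCTACCTCa
Lin28b site: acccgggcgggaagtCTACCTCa

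Read against their own E13.5 means, the genes differed in how much was left at each stage. At E16.5 Nanog had 6.58% ± 1.53 (SD, n = 3) of its E13.5 mean left, Sox2 7.70% ± 1.259 and Esrrb 9.59% ± 2.13. Utf1 had 47.0% ± 2.59, Zfp42 49.4% ± 3.56 and Pou5f1 53.4% ± 1.91. Lin28a and Lin28b had 69.4% ± 6.25 and 71.3% ± 3.76, Tfcp2l1 167% ± 22.5 and Klf4 279% ± 14.6. Neighbours in this order of loss were compared by the log2 ratio of the 2 genes (normalized count + 1) within each library. A pair is said to overlap when its ratios at the later stage overlapped its ratios at E13.5. Neighbours were picked by the percentages left, so the direction of each difference was set in advance. Overlap of 3 libraries with 3 does not show that the 2 genes fell alike. Nanog, Sox2 and Esrrb had the lowest means at E16.5, each under 10%, and their neighbouring pairs overlapped as defined here. Esrrb with Utf1 did not overlap. An exact permutation test of these ratios, 3 libraries against 3, cannot go below p = 0.1. That is what it gave (two-sided, 0.225 after Benjamini-Hochberg adjustment over the 9 neighbouring pairs). Of the 9 pairs of neighbours at E16.5, 5 overlapped, among them Utf1 with Zfp42 (exact p = 0.7), Zfp42 with Pou5f1 (exact p = 0.3) and Lin28a with Lin28b (exact p = 0.7).

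At P0 the order was partly different. Nanog had 1.74% ± 0.05 left, Sox2 4.71% ± 1.06, Esrrb 7.47% ± 2.32, Pou5f1 7.94% ± 0.34 and Utf1 8.35% ± 0.26. Zfp42, close to Utf1 and Pou5f1 at E16.5, still had 16.6% ± 2.79, near Lin28a with 12.9% ± 1.97. Tfcp2l1 had 24.5% ± 3.20, Lin28b 47.9% ± 3.90 and Klf4 383% ± 22.6. Neighbours whose ratios at P0 overlapped those at E13.5 were Esrrb with Pou5f1 (exact p = 0.8), Pou5f1 with Utf1 (exact p = 0.4) and Lin28a with Zfp42 (exact p = 0.3). The other 6 of the 9 pairs did not overlap in their ratios. The percentages left of Sox2 (3.77% to 5.86%) and Esrrb (5.63% to 10.1%) did overlap at P0.

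At P3 the order changed again, with Utf1 next after Nanog. Nanog had 0.0730% ± 0.0169 left, Utf1 3.02% ± 0.23, Sox2 6.57% ± 0.51, Esrrb 8.78% ± 0.85, Pou5f1 13.48% ± 0.43, Tfcp2l1 16.8% ± 4.35 and Zfp42 21.6% ± 1.257. Lin28a had 105% ± 8.70, Lin28b 109% ± 5.14 and Klf4 205% ± 6.40. Neighbours whose ratios at P3 overlapped those at E13.5 were Pou5f1 with Tfcp2l1 (exact p = 0.3), Tfcp2l1 with Zfp42 (exact p = 0.2) and Lin28a with Lin28b (exact p = 0.9).

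The order can be read at marks of 50% and 10%, first with the deposited scaling. Every library was under 50% of the E13.5 mean in 4 genes at E16.5 (Sox2, Nanog, Utf1 and Esrrb), in 8 at P0 with Pou5f1, Lin28a, Tfcp2l1 and Zfp42 added, and in 7 at P3, since Lin28a had returned. Lin28b, with 52.4% in its highest P0 library, and Klf4 never met that mark. Every library was under 10% in 2 genes at E16.5 (Sox2 and Nanog) and in 4 at P0 (Sox2, Nanog, Utf1 and Pou5f1). At P3 it was 4 again, with Esrrb in and Pou5f1 out. How many of all genes met these marks was not counted, so the counts describe the 10 genes only. The percentages, and with them the genes that meet a mark, move with the scaling of libraries. With equal totals, P0 gave 17.9% for Pou5f1, 37.3% for Zfp42, 54.9% for Tfcp2l1 and 108% for Lin28b. The highest E16.5 library of Utf1 was at 51.8% with TMM, 58.3% with median-of-ratios factors and 70.3% with equal totals, past the 50% mark. With equal totals no gene met the 10% mark at E16.5, where the highest libraries of Nanog and Sox2 were at 11.4% and 12.5%. At P0 only Nanog met it, and Sox2 reached 12.7%.

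**Figure D3:**
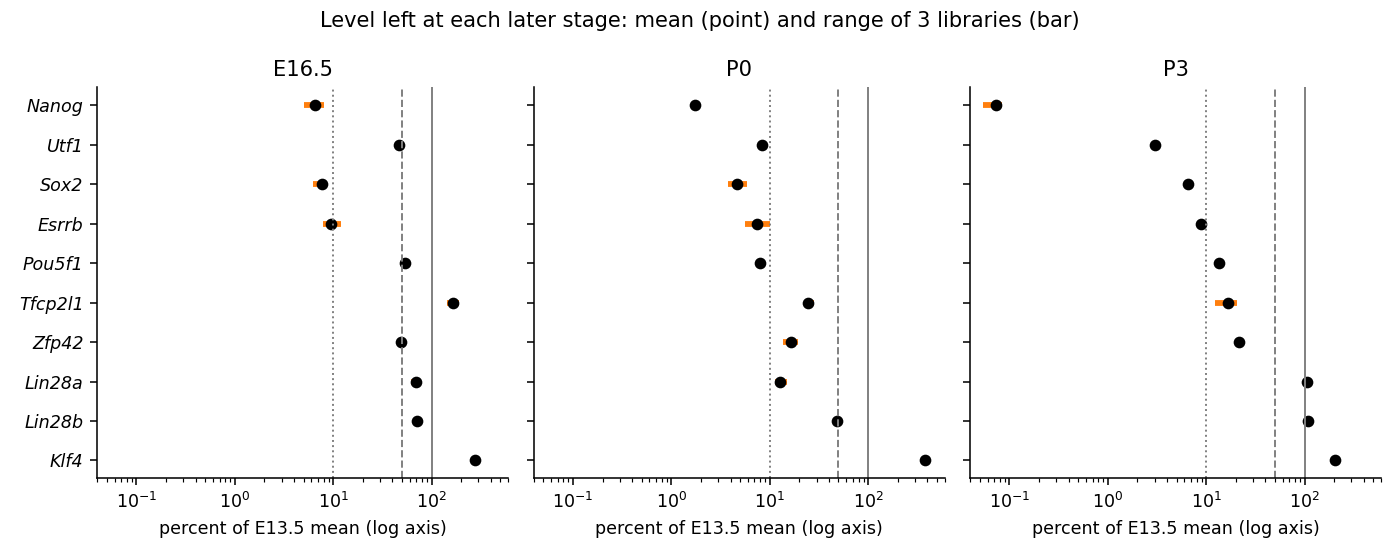
Percent of the E13.5 mean left at E16.5, P0 and P3 (log axis) for the 10 genes; points are means of 3 libraries, orange bars the range, and the vertical lines stand at 10%, 50% and 100%. Nanog, Sox2 and Esrrb are near 10% or under it already at E16.5, Utf1 and Pou5f1 join them at P0, and Lin28a and Lin28b are back near 100% at P3.

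Counts of genes that passed are given by step, each beside the share of all genes tested that passed in that direction. All 10 genes differed between the 4 stages (limma F-test), as did 95.2% of the 22384 genes tested. At E16.5 against E13.5, 8 of the 10 fell (34.6% of all genes tested fell) and 2 rose, Tfcp2l1 and Klf4 (45.5% of all rose). The median log2 fold change of the 10 was -0.96, beside 0.31 over all genes tested. Of the 6 germ cell markers 4 rose and 2 fell there (median log2 fold change 1.55). Their summed level was 252644 to 263669 at E13.5 and 264379 to 295863 at E16.5. At P0 against E16.5, 8 fell (33.4% of all), Klf4 alone rose (27.6% of all) and Esrrb did not pass, with medians of -1.73 and -0.01. At the same step 5 of the 6 germ cell markers fell and 1 rose (median log2 fold change -0.95), their summed level going from 264379 to 295863 at E16.5 to 152418 to 163710 at P0, while the 5 tested Sertoli cell and 5 mast cell markers rose. With equal totals 3 of the germ cell markers fell, and the part of these shifts in the counts was not tested. At P3 against P0, 5 rose (40.1% of all), namely Lin28a, Lin28b, Pou5f1, Sox2 and Zfp42, and 4 fell (36.4% of all), namely Nanog, Utf1, Klf4 and Tfcp2l1, with medians of 0.33 and 0.05. The shares of the 10 called higher and lower at that step are near those of all genes. Of the germ cell markers 4 rose and 1 fell there, with a summed level of 248224 to 262413 at P3. Among the 10 genes, 3 rose and 4 fell at this step under TMM factors (36.2% and 40.4% of all). With equal totals 2 of the 10 rose and 6 fell (19.7% and 58.4% of all).

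**Figure D4:**
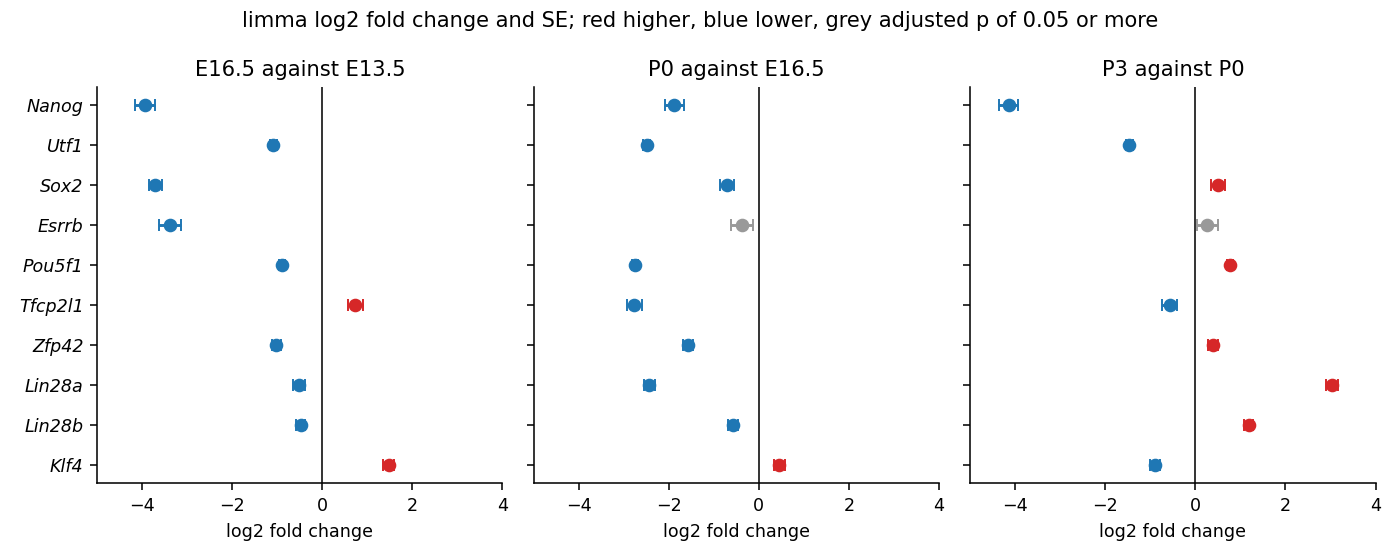
Log2 fold change and SE from limma on log2(normalized count + 1) for the 10 genes at each of the 3 consecutive steps; red marks genes that rose, blue genes that fell and grey those with an adjusted p of 0.05 or more. The far left points move from Nanog, Sox2 and Esrrb at the first step to Tfcp2l1 and Pou5f1 at the second; the Nanog point at P3 against P0 rests on 2 to 3 reads per P3 library.

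The comparisons within 1 genotype tag covered longer intervals. At P0 against E13.5, 9 of the 10 fell (40.5% of all genes tested fell) and Klf4 rose by 1.93 (45.7% of all rose), with a median of -3.27 beside 0.20. Among the 9, Lin28b changed least and turned to 0.11 with equal totals. At P3 against E16.5, 6 fell (35.2% of all), and Lin28a and Lin28b rose by 0.60 and 0.61 (34.2% of all). Sox2, as above, and Esrrb did not pass there under the deposited scaling, and Esrrb, at -0.11, turned to 0.06 without E16.5 library 3. Nanog was at least 80.4-fold lower. At P3 against E13.5, which crosses the tag, 7 fell (31.2% of all) and Klf4 rose by 1.03 (39.2% of all), while Lin28a and Lin28b did not pass. These comparisons share libraries with the consecutive steps and are not independent of them.

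**Figure D5:**
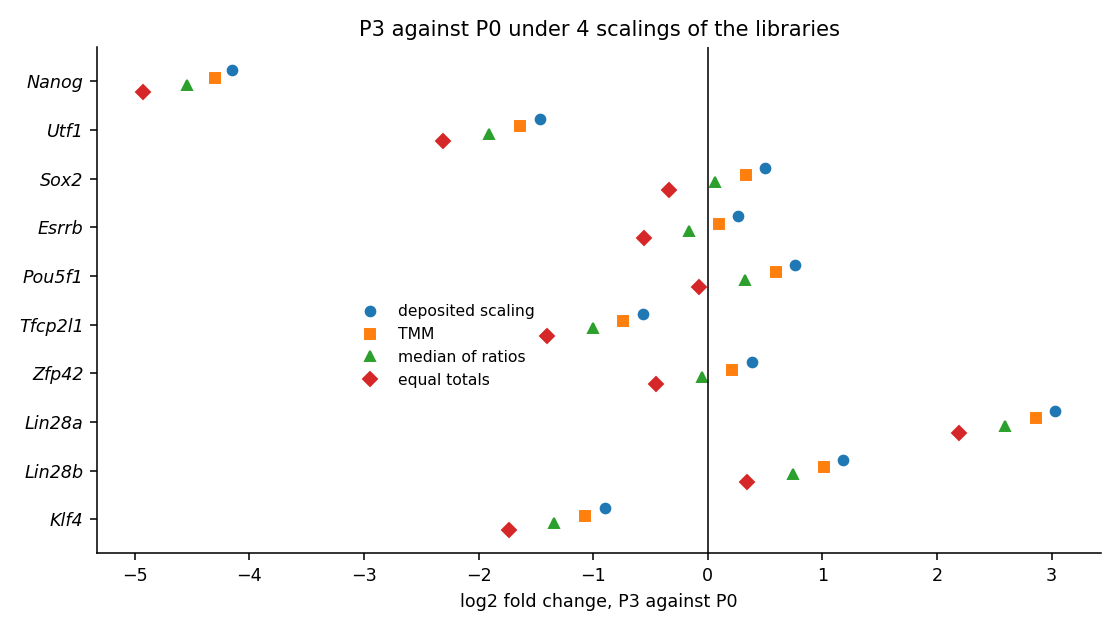
Log2 fold change of P3 against P0 for the 10 genes under the deposited scaling and 3 others (TMM, median of ratios and equal library totals). Another scaling moves all genes of a comparison by nearly the same amount, so Lin28a and Lin28b stay above 0 and Nanog, Utf1, Tfcp2l1 and Klf4 below it, while Sox2, Esrrb, Pou5f1 and Zfp42 cross it.

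Scaling matters most at P0, where the size factors of the file averaged 1.94 ± 0.12 (SD, n = 3), against 0.939 ± 0.018, 1.13 ± 0.12 and 1.01 ± 0.02 at E13.5, E16.5 and P3. With equal totals the median over all genes tested was 0.84, 0.68 and -0.86 on the log2 scale for the 3 consecutive steps, beside the medians of 0.31, -0.01 and 0.05 given above, and differences are best read relative to it.

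Compared with one another per kilobase of exon, the 10 genes spanned a wide range of levels. At E13.5 Utf1 had 34893 ± 2734 (SD, n = 3) normalized counts per kilobase, 73.6% of the sum of the 10, followed by Pou5f1 with 5897 ± 45.3, Zfp42 with 2236 ± 92.5, Sox2 with 2044 ± 74.1, Nanog with 1613 ± 177 and Lin28a with 374 ± 51.9. Tfcp2l1 (125 ± 12.9), Esrrb (113 ± 9.93) and Lin28b (97.4 ± 9.44) overlapped as neighbours in this order, and Klf4 was last at 48.7 ± 4.14. At P3 Utf1 was still first, with 1054 ± 80.3 or 34.0% of the sum, and Pou5f1 second with 795 ± 25.2 or 25.7%. Zfp42 (482 ± 28.1) and Lin28a (394 ± 32.6) came next, then Sox2 (134 ± 10.4), Lin28b (106 ± 5.01) and Klf4 (99.9 ± 3.12), of which Lin28b and Klf4 overlapped. Tfcp2l1 (21.0 ± 5.43), Esrrb (9.95 ± 0.96) and Nanog (1.178 ± 0.27) closed the order. Nanog thus went from place 5 to place 10 and Klf4 from place 10 to place 7. At E16.5 the pairs Lin28a with Tfcp2l1, Sox2 with Klf4 and Klf4 with Nanog overlapped, and at P0 Lin28a with Lin28b and Tfcp2l1 with Nanog.

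For each of the 10, the genes with the nearest profile over the 12 libraries were sought among 13624 named genes with a mean of at least 100 normalized counts at some stage, by the root mean square difference of centred log2 values. The nearest to Pou5f1 was Stip1, a co-chaperone of HSP70 and HSP90, at 0.179, followed by Proca1 (0.257). Sox2 was nearest to Lrrfip1 (0.212) and Ldhb, a lactate dehydrogenase subunit (0.335), and Lrrfip1 was also second for Esrrb (0.315) after Plk5 (0.202). Tfcp2l1 had Tpp1, a lysosomal peptidase (0.299), and Dppa4, a chromatin factor of pluripotent and germ cells (0.353). Nanog had no gene within 0.5, and the nearest were Mup6 (0.832) and Gdf3 (1.01). By contrast Lin28b had 3925 genes within 0.5, led by Sp2 (0.0677) and Zfp266 (0.0779), since its range is small. Utf1 was nearest to Mlph (0.314) and Krt42 (0.394), Lin28a to Prpsap1 (0.173) and Jrk (0.176), Klf4 to Phf1 (0.112) and Igfbp4 (0.120), and Zfp42 to Zfp322a (0.131) and Cemip2 (0.137). These distances describe 12 libraries that share stage, and no function is read from them.

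The shares of all genes tested that passed stand beside the counts of the 4 lists that follow. Other genes of the pluripotency network, 32 factors and signals such as Klf2, Prdm14, Tdgf1 and Dppa5a, were all tested. From E13.5 to E16.5, 24 fell and 7 rose, with a median of -2.54 on the log2 scale, beside 34.6% and 45.5% of all genes tested and a median of 0.31. L1td1, an RNA-binding protein of embryonic stem cells, had the lowest log2 fold change, -6.74 (mean 2338 to 22.98 normalized counts, adjusted p = 2.77e-12), and Tfap2a, an AP-2 factor, the highest, from 4, 0 and 2 reads to 18, 9 and 19 (adjusted p = 0.00112). From E16.5 to P0, 11 rose and 11 fell, near the 27.6% and 33.4% of all genes. With equal totals 16 rose and 7 fell, when 54.9% of all genes rose and 14.8% fell. Pou3f1 (OCT6), a POU factor of primed cells and spermatogonia, rose most, from 69.1 to 624 (log2 fold change 3.21, adjusted p = 1.54e-09), and Dppa3, above, fell most. From P0 to P3, 11 rose and 17 fell, beside 40.1% and 36.4% of all genes. With equal totals these counts were 6 and 22, when 19.7% of all genes rose and 58.4% fell. Tcl1, a coactivator of AKT, rose by 3.96 (854 to 13318, adjusted p = 5.14e-15), and Otx2, a homeodomain factor of primed cells, dropped from a mean of 413 to one of 4.03 (log2 fold change -7.01, adjusted p = 3.38e-09). The P3 libraries held 0, 2 and 10 reads of Otx2.

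The LIN28 and let-7 list held 14 genes, the enzymes that process and degrade let-7 and several known let-7 targets, and all were tested. From E13.5 to E16.5, 13 fell (34.6% of all genes) and 1 did not pass, with a median of -1.44 beside 0.31 over all genes. Mycn, a MYC family factor, had the lowest log2 fold change, -4.98 (mean 22183 to 717 normalized counts, adjusted p = 1.55e-14). From E16.5 to P0, 6 rose (27.6% of all) and 4 fell (33.4% of all), which became 13 and 1 with equal totals (54.9% and 14.8% of all). Igf2bp3, an mRNA-binding protein, rose most, by 1.40 (968 to 2562, adjusted p = 5.58e-11), and Arid3a had the lowest value, -1.09 (606 to 281, adjusted p = 3.95e-06). From P0 to P3, 11 rose (40.1% of all) and 1 fell (36.4% of all), with a median of 0.78 beside 0.05, but 4 rose and 4 fell with equal totals (19.7% and 58.4% of all), with a median of -0.06 beside -0.86. Mycn rose by 2.201 (1049.9 to 4803, adjusted p = 4.43e-10), and Igf2bp3 fell by 0.39 (2562 to 1954, adjusted p = 9.75e-05). At P3 against E16.5, within 1 tag, 12 rose and 1 fell (34.2% and 35.2% of all), led by Igf2bp1 with a rise of 2.88.

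Relatives of Sox2 and Pou5f1 did not all move with them. Of 9 SOX and POU genes 8 were tested, and Pou6f1 was at 0 reads in all 12 libraries. From E13.5 to E16.5, 5 fell (34.6% of all genes) and 3 rose (45.5% of all), with a median of -0.94. Sox15, a SOX factor also made by embryonic stem cells, fell by 5.08 (mean 2374 to 70.4 normalized counts, adjusted p = 5.10e-13), and Pou2f2 (OCT2) rose by 3.86 (12.8 to 203, adjusted p = 6.79e-11). From E16.5 to P0, 5 rose (27.6% of all), Pou3f1 most, and 3 did not pass, while with equal totals 8 rose (54.9% of all). From P0 to P3, 3 rose and 3 fell, near the 40.1% and 36.4% of all genes (3 and 5 with equal totals, beside 19.7% and 58.4%), with Pou3f1 rising by 3.19 to a mean of 5678 (adjusted p = 7.46e-10) and Sox17 falling from 203 to 8.49 (log2 fold change -4.55, adjusted p = 1.13e-07). Sox17 also marks endothelium, and 2 of 4 endothelial markers fell at that step, where their summed level went from 1000.4 to 1157 at P0 to 577 to 741 at P3; their part was not tested.

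Genes of spermatogonia, the cells gonocytes become, were listed for the same stages. Of 10 tested, 4 rose (45.5% of all genes) and 6 fell (34.6% of all) from E13.5 to E16.5, with Sohlh1, a helix-loop-helix factor of spermatogonia, rising from a mean of 18.9 to 11796 normalized counts (log2 fold change 9.31, adjusted p = 2.86e-15) and Etv5, a target of GDNF signalling, falling from 20956 to 1049 (-4.35, adjusted p = 4.11e-14). From E16.5 to P0, 4 rose and 4 fell, not far from the 27.6% and 33.4% of all genes (6 and 2 with equal totals, beside 54.9% and 14.8%), with Gfra1, the GDNF receptor, rising by 1.73 (adjusted p = 8.69e-08) and Kit, the stem cell factor receptor, falling from 2804 to 1281 (log2 fold change -1.13, adjusted p = 2.80e-07). From P0 to P3, 9 rose (40.1% of all) and 1 did not pass, with a median of 3.62 beside 0.05 over all genes, and Gfra1 rose by 4.73 (575 to 15269, adjusted p = 2.22e-13), while with equal totals 8 rose and 2 fell (19.7% and 58.4% of all). At this step Lin28a and Lin28b were the members of the pluripotency set that rose under every scaling tried. Sall4, a zinc finger partner of POU5F1 that is on both the network and the spermatogonial list, also rose, by 1.30 (4554 to 11261, adjusted p = 1.99e-09).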

How the data were processed

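Per the submitters' processing notes, bcl2fastq 2.20, cutadapt 1.18, HISAT2 2.1.0, featureCounts 1.5.2 and DESeq2 1.26.0 were used, with build mm10/GRCm38. Libraries were made with SMART-seq v4 and TruSeq kits, per the labels' protocols. The annotation release, strand setting and handling of multiply mapped reads are not given in the sources used here. The signal deposited by the authors holds each gene's reads after division by the library's size factor (relative log expression). All of the 55487 gene values in each of the 12 libraries were whole multiples of 1 unit within a tolerance of 0.001, so reads were recovered.

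Column heads number libraries 1, 3 and 4, unlike the titles, so columns were assigned to stages only. Identifiers were named with GENCODE M21 (99.4% matched). The 22384 genes that reached 10 normalized counts in 3 or more libraries were fitted with limma 3.58.1 (trend) on log2(normalized count + 1) over all 12 libraries with 8 residual degrees of freedom, and tested on simulated data first. Alternatives were 4 other scalings, 2 pseudocounts, 2 filters, a fit of only the stages compared, a fold threshold, edgeR 4.0.16 and DESeq2 1.42.0 on recovered reads, leaving out each library and, added after seeing the data, a block on the library number.

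The members and lists were chosen with earlier results of these data known. Named genes are all 10 members, for each list and described comparison the passing gene with the highest and the lowest log2 fold change, and the 2 nearest genes of each member. Cell type markers and Morc1, the gene of the genotype tag, are named as well. Dppa3 and Gdf3 as neighbours of Nanog, and Sall4, were named after their values were seen.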

Additional observations from a re-analysis of the deposited data

How the results depend on the processing

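Of 1440 values of single genes under the alternatives, 1417 kept their direction and side of the threshold, 5 fell short of it, 6 passed it newly and 12 changed direction; all 60 were kept with edgeR on recovered reads and all 60 with DESeq2. Changes of direction with equal library totals were Lin28b at E16.5 against E13.5 (0.0223), P0 against E16.5 (0.0869) and P0 against E13.5 (0.109), Esrrb at P0 against E16.5 (0.279), and Pou5f1 (-0.0767), Sox2 (-0.337), Esrrb (-0.560, adjusted p 0.0437) and Zfp42 (-0.453, limma adjusted p 0.00077) at P3 against P0. Median-of-ratios factors turned Esrrb (-0.165) and Zfp42 (-0.0531) in the same comparison. Leaving out 1 library at a time gave -0.241 to 0.0617 for Esrrb at P3 against E16.5, positive without E16.5 library 3, and -0.0141 to 0.183 for Lin28a at P3 against E13.5, negative without E13.5 library 3.

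The number of members that rose at P3 against P0, 5 (40.1% of all genes rose), was 3 with TMM factors (36.2% of all). It was 3 with factors from median ratios (29.4% of all) and 2 with equal totals (19.7% of all). At P3 against E13.5 it went from 1 (39.2% of all) to 3 with equal totals (46.8% of all). When a log2 change of 1 or more in size was also required, the counts were 5 lower and 1 higher at E16.5 against E13.5. They were 0 higher at P0 against E16.5, 2 lower and 2 higher at P3 against P0, and 0 higher at P3 against E16.5. Of the 22384 genes tested, 13362, 7604, 12236 and 10138 met both conditions, in either direction, at these comparisons in turn. With the deposited scaling, the counts of lost members were 2, 4 and 4 at the mark of 10%, in place of 4, 8 and 7 at 50%. Such counts were not made over all genes. The cause of these changes was not tested. A replicate block on the library number in the table, which is not that of the titles, was added after seeing the data. It left 8 members lower and 2 higher at the first step, 8 and 1 at the second and 4 and 5 at the third, and changed no call of the 60. The numbers do not pair the libraries: the 18 same-numbered pairs correlated at -0.0356 to 0.0423 in their deviations from the stage means, and 2 of 12 libraries correlated best with their own number. Depth limits Nanog at P3, with 2 to 3 reads per library.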
